A study of Mus musculus with 8 samples.

Results

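Fragments of tRNA Asp-GTC, the transfer RNA that carries aspartate to the ribosome, made up 202 of the 2226 tRNA-derived fragment (tRF) sequences in a small RNA table of sorted mouse pancreatic β-cells. Every sequence whose assigned tRNA was Asp-GTC was taken, whatever its length, end or level. Small RNA had been sequenced from 8 libraries, 4 from db/db mice (BKS.Cg-Dock7m+/+Leprdb J), which lack a working leptin receptor and become obese and diabetic, and 4 from wild type mice of the same background (BKS.Cg-Dock7m+/+). All animals were males of 8 weeks, the Dock7m allele was part of the strain name of both groups, and the labels name no other treatment. Islets of several mice were pooled for each preparation, with fewer db/db than wild type animals per pool, and β-cells were sorted by their autofluorescence. A table of tRFs holds no mRNA, so the identity of the sorted cells could not be checked against marker genes here. Each value below is a count of tRF reads, and CPM means counts per 1000000 of a library's listed tRF counts after scaling by TMM, a factor that aligns the bulk of the sequences between libraries. In such bulk samples fewer cells of a type and less RNA per cell cannot be told apart.

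A tRNA folds into a cloverleaf. Its 5' side runs from the acceptor stem through the D arm to the anticodon loop, and its 3' side runs back through the T arm to the acceptor stem, to whose end the bases CCA are added after transcription. Enzymes such as angiogenin cut tRNAs in the anticodon loop and leave long 5' and 3' fragments, while cuts near the D and T arms leave shorter fragments. tRNA Asp-GTC is 1 of the 4 tRNAs (with Asn-GTT, His-GTG and Tyr-GTA) whose anticodon can carry queuosine at its first base, and it is a classic substrate of Dnmt2, which methylates a cytosine of the anticodon loop and is known to shield the loop from cleavage.

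To place every fragment, the overlapping fragments themselves were joined into 1 mature sequence of 75 bases, shown here because all positions in the text are counted on it from base 1 at the 5' end. Without CCA it has 72 bases, the length of all 16 Asp-GTC genes of the RefSeq annotation (n-TDgtc1 to n-TDgtc16; GRCm38.p6; chromosomes 1, 2, 5, 10, 11 and 13). Capitals mark the anticodon, bases 34 to 36.
Mature tRNA Asp-GTC: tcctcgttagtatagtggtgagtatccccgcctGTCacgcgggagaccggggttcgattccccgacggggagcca

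Of the 202 sequences, 163 matched this sequence base for base and 39 differed from it at 1 base. The 3 variable bases, with the assembled base written before the position and the variant base after it, were G20T in the D loop (11 sequences), G56A in the T loop (22 sequences) and C66T in the acceptor strand that precedes CCA (6 sequences). None of the 202 sequences lay inside a sequence assigned to another tRNA. The sequences shown next are some of the most abundant CCA-ending ones, the most abundant 5' one and the 7 whose levels differed between the genotypes. The most abundant ones 3 bases short of CCA or with neither end are not among them. Capitals mark the variable bases that a fragment covers.
Bases 47 to 75, the most abundant sequence: ccggggttcGattccccgaCggggagcca
Bases 48 to 75: cggggttcGattccccgaCggggagcca
Bases 48 to 75 with G56A: cggggttcAattccccgaCggggagcca
Bases 49 to 75: ggggttcGattccccgaCggggagcca
Bases 49 to 72, lower in db/db: ggggttcGattccccgaCggggag
Bases 49 to 72 with G56A, lower in db/db: ggggttcAattccccgaCggggag
Bases 1 to 29, the most abundant 5' sequence: tcctcgttagtatagtggtGagtatcccc
Bases 2 to 30, higher in db/db: cctcgttagtatagtggtGagtatccccg
Bases 2 to 31, higher in db/db: cctcgttagtatagtggtGagtatccccgc
Bases 3 to 31, higher in db/db: ctcgttagtatagtggtGagtatccccgc
Bases 3 to 32, higher in db/db: ctcgttagtatagtggtGagtatccccgcc
Bases 3 to 32 with G20T, higher in db/db: ctcgttagtatagtggtTagtatccccgcc

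Asp-GTC was the most abundant tRNA of the table in both genotypes, and no difference in its total passed the test. Listed tRF counts ran from 582165 to 2946290 a library, and Asp-GTC took 46.6% ± 4.37 of them in wild type libraries, against 46.4% ± 5.68 in those of db/db mice (SD, n = 4 each). The total stood at 554710, 368124, 508512 and 489443 CPM in the 4 wild type libraries. In the db/db libraries it was 291418, 552786, 622496 and 414811 CPM. The db/db libraries held both the lowest and the highest total, and the genotypes overlapped throughout. The log2 fold change (db/db minus wild type, as everywhere below) was -0.03 with a standard error of 0.30, and the p from the quasi-likelihood test of edgeR, adjusted by the Benjamini-Hochberg method over 48 tRNA totals, was 0.998. A call required an adjusted p under 0.1 and a change of more than 2-fold, and by this rule 4.17% of the tRNA totals were called. The p-values measure the spread between these 4 preparations a genotype.

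**Figure D1:**
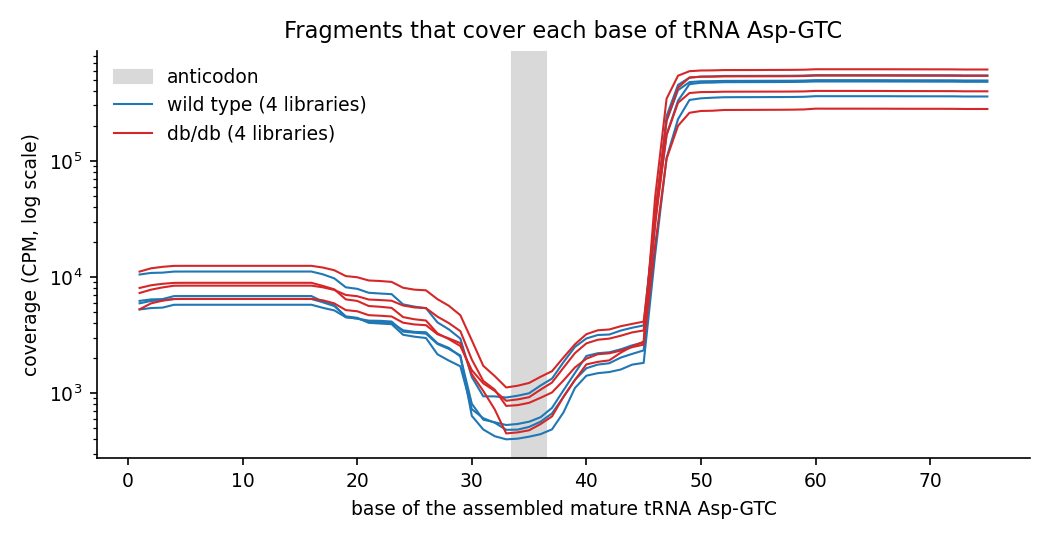
Coverage of the assembled mature tRNA Asp-GTC by its fragments, with the base position on the x axis and the summed level in CPM on a logarithmic y axis, 1 line for each of the 4 wild type and 4 db/db libraries. Coverage fell to its lowest level around the anticodon (grey) and rose steeply from base 46 on, where the CCA-ending fragments begin, in all 8 libraries.

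The tRNAs that share the modifications of Asp-GTC did not share 1 pattern. Among the other queuosine tRNAs the log2 fold change of the total was 0.02 ± 0.26 (SE) for Asn-GTT, 0.39 ± 0.24 for His-GTG and -0.60 ± 0.34 for Tyr-GTA, and none was called. Among the other Dnmt2 substrates Val-AAC stood at -0.19 ± 0.25 and was not called. Gly-GCC rose by 1.74 ± 0.25 (adjusted p = 2.76e-05, edgeR), from 927 ± 239 CPM in wild type to 3107 ± 701 CPM in db/db libraries (SD, n = 4 each). The 3 totals that followed the Asp-GTC total most closely over the 8 libraries were those of Lys-CTT (Spearman's rho 0.88, Pearson's r 0.72), Sup-TCA (0.86 and 0.75) and Leu-AAG (0.76 and 0.80). Sup-TCA was rare, at 11.4 to 55.9 CPM a library, so its coefficients rest on few counts. All these coefficients describe libraries that share their scaling with a tRNA that holds close to a majority of the counts, and they carry no test.

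The fragments came overwhelmingly from the 3' end of the tRNA. The 32 sequences with a complete CCA end held 97.5% of all Asp-GTC counts, the 24 that started at base 1 held 1.45%, and the 21 that started at bases 2 to 4 held 0.190%. Another 14 sequences stopped at base 72, 3 bases short of CCA (0.271%), and the remaining 111 carried neither end (0.542%). All lengths lay between 16 and 30 nt, the limits of the whole table, so a 5' fragment cut at base 31 or 32 can be seen only if it has lost its first base or bases, and a CCA-ending fragment only if it starts at base 46 or later. A 3' fragment that runs from a cut in the anticodon loop to CCA would exceed these limits.

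**Figure D2:**
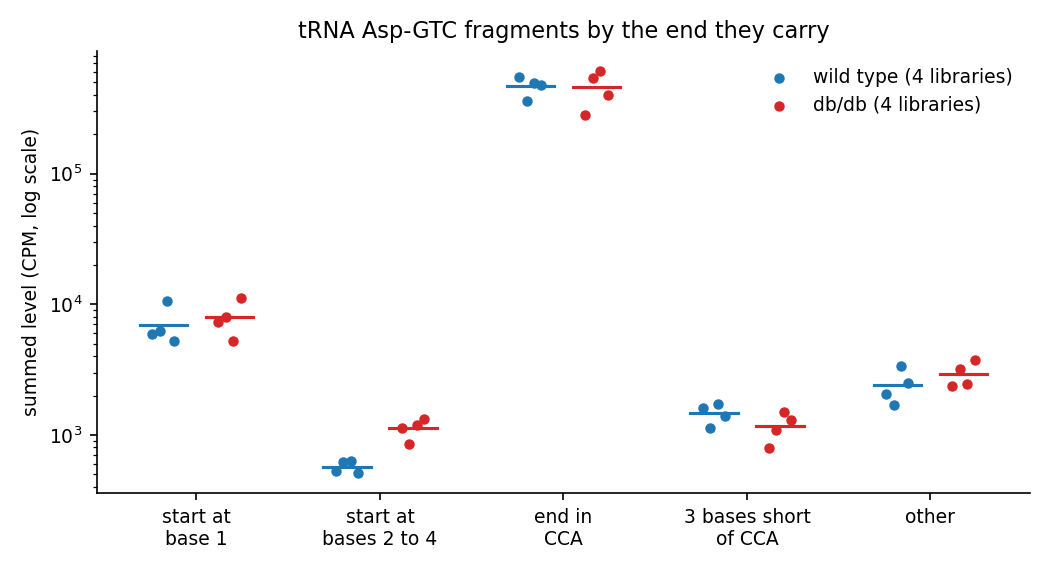
Summed level of the 5 kinds of Asp-GTC fragment in CPM on a logarithmic axis, with 1 point for each library (4 wild type, 4 db/db) and a bar at each group mean. The fragments that start at bases 2 to 4 are the 1 kind whose wild type and db/db points do not overlap.

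Of the 202 sequences, 161 passed the filter on low counts and were tested. Of these, 7 were called, 5 higher and 2 lower in db/db β-cells, which is 4.35% of the tested Asp-GTC sequences against 15.6% of the 1832 sequences tested in the whole table. The share higher was 3.11% against 6.17% in the table, and the share lower was 1.24% against 9.39%. The median log2 fold change of the 161 sequences was 0.26, against 0.06 over all tested sequences. In 13 of the 161 (8.07%) the values of the 2 genotypes did not overlap, against 17.2% in the table. The number of calls depended on single libraries: it was 20 (16 higher) without wild type library 3 and 11 (9 higher) without db/db library 3, and the 7 calls were among them each time. With the library sizes that the deposited log2 values imply, 4 of the 7 were called. Of the 7, bases 3 to 31 and bases 3 to 32 with G20T exceeded the count minimum in db/db libraries alone, and bases 49 to 72 with G56A in wild type libraries alone. Calls fell on fragments that started at bases 2 to 4 (5 of 17 tested, from 21) and on those 3 bases short of CCA (2 of 11 tested, from 14), and no sequence that started at base 1 (24 tested), ended in CCA (31 tested) or carried neither end (78 tested) was called by edgeR with TMM factors and all libraries. Without wild type library 3, 3 sequences from base 1, 2 ending in CCA and 5 with neither end were called as well. Without db/db library 3, 2 sequences from base 1 and 1 with neither end were called, and DESeq2 called 1 ending in CCA. So did edgeR without wild type library 4, without db/db library 2, and with the library totals implied by the deposited RPM values, while without a normalisation factor 1 from base 1 was called.

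Fragments that started at bases 2 to 4 were higher in db/db β-cells as a sum. In a split by last base chosen after the values were seen, the rise lay in those that ended at bases 30 to 32. The summed level of all 21 that started at bases 2 to 4 was 528, 618, 633 and 510 CPM in the wild type libraries. In the db/db libraries it was 1134, 855, 1184 and 1332 CPM, above every wild type value. The change was 0.98 ± 0.26 (SE) on the log2 scale, or 1.97-fold, with an adjusted p of 0.011 by edgeR over 137 fragment groups. It passed the p threshold and fell just under the 2-fold limit of a call, while 20.4% of the groups were called. With the library sizes implied by the deposited RPM and log2 values it was 0.54 and 0.38 (adjusted p = 0.402 and 0.804). Within the sum, the 13 sequences that ended at bases 16 to 29 stood at 398 ± 90.7 CPM in wild type and 396 ± 59.2 CPM in db/db libraries. The 8 that ended at bases 30 to 32 stood at 174 ± 56.3 and 731 ± 148 CPM. They include the 5 called sequences, so this split restates the calls, and it was not tested. When starts at bases 2 and 3 were counted as intact 5' ends, so that base 4 alone remained, the log2 fold change of the group was -0.31 (adjusted p = 0.617).

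All fragments that started at base 1 together stood at 6976 ± 2382 CPM in wild type and 7928 ± 2432 CPM in db/db libraries (log2 fold change 0.18 ± 0.32, adjusted p = 0.739). Their share of Asp-GTC counts averaged 1.47% ± 0.490 in wild type libraries, with 1.87% ± 0.870 in the db/db ones (n = 4 each; exact permutation p = 0.457, adjusted p = 0.686).

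As a share of all counts that started at bases 1 to 4, those that started at bases 2 to 4 made up 8.18%, 9.03%, 5.69% and 8.85% in the wild type libraries. In the db/db libraries they made up 13.5%, 9.61%, 18.3% and 10.7%. No db/db value fell among the wild type values, and the 2-sided exact permutation p was 0.0286, the smallest that 70 assignments of 4 against 4 libraries can give. After adjustment over the 8 shares and lengths that were tested it was 0.229. At least 5 of the 8 would have had to reach the smallest p for any to pass at 0.05, so no difference of this family passed.

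Among the 5' fragments, the 5 called sequences started at base 2 or 3 and ended at bases 30 to 32, a little before the anticodon (bases 34 to 36). Other sequences with the same last bases were not called. The sequence of bases 3 to 32 had 47.4, 9.42, 17.5 and 19.8 CPM in the wild type libraries and 204, 143, 205 and 201 CPM in the db/db libraries. Every db/db value lay above the highest wild type value, and the lowest db/db value, that of library 2, stood apart from the other 3. It rose by 3.02 ± 0.45 on the log2 scale (8.12-fold, adjusted p = 3.92e-05, edgeR).

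The same fragment with the variant base, bases 3 to 32 with G20T, rested on few counts. It exceeded the count minimum in db/db libraries alone, so it entered the test only through the genotype where it is high. It had 2, 0, 3 and 3 counts in the wild type libraries and 44, 18, 72 and 41 in the db/db libraries. The 0 counts of wild type library 2 allow up to 4.04 CPM (3 counts), below the lowest db/db value of 32.7 CPM. Its fitted change was 3.77 ± 0.65 (adjusted p = 0.000137, edgeR), and the ratio of the summed counts per effective library size was 14.4, with a 95% exact binomial interval of 7.16 to 33.9 that covers counting error only.

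The sequence of bases 2 to 31, the most abundant of those that start at bases 2 to 4, had 110, 61.9, 74.7 and 56.2 CPM in wild type and 199, 211, 325 and 335 CPM in db/db libraries. It rose by 1.83 ± 0.38 (adjusted p = 0.000891), without overlap. The sequence of bases 2 to 30 stood between 15.04 and 40.6 CPM in wild type and between 70.8 and 159 CPM in db/db libraries, a change of 2.11 ± 0.43 (adjusted p = 0.000820). The sequence of bases 3 to 31 stood between 3.17 and 9.54 CPM in wild type and between 19.96 and 63.4 CPM in db/db libraries, a change of 2.71 ± 0.56 (adjusted p = 0.000903). It exceeded the count minimum in db/db libraries alone, so it entered the test only through the genotype where it is high. With the sizes implied by the deposited log2 values, these 3 sequences (bases 2 to 31, 2 to 30 and 3 to 31) were no longer called (adjusted p = 0.451, 0.315 and 0.112). All 5 called 5' sequences overlap in almost all of their bases and are not independent of each other.

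The 5' fragments were also summed by last base over all 45 sequences that started at bases 1 to 4, tested or not, as a description chosen after the values were seen and given without a test. The 35 that ended at bases 16 to 29 stood at 7019 ± 2225 CPM in wild type and 7552 ± 2105 CPM in db/db libraries. At base 30 the sums were 387 ± 230 and 911 ± 395 CPM, with overlap. At base 31 they were 94.1 ± 22.03 and 325 ± 80.02 CPM and at base 32 47.8 ± 28.1 and 266 ± 48.2 CPM, without overlap at either. Of the 33 tested sequences that ended at bases 16 to 29, 21 had a log2 fold change above 0, the range was -0.63 to 1.11, and none was called with all libraries. Without wild type library 3, bases 1 to 24, 2 to 27 and 2 to 29 were called, and bases 2 to 29 also without db/db library 2. Of the 8 tested that ended at bases 30 to 32, 2 (bases 3 to 31, and 3 to 32 with G20T) exceeded the count minimum in the db/db libraries alone, so that sequences this rare in wild type entered the test only through their db/db counts. Fragments that ended at bases 30 to 32 made up 6.93% ± 1.04 of the counts that started at bases 1 to 4 in wild type and 16.7% ± 2.72 in db/db libraries (SD, n = 4 each). The 4 wild type shares lay between 5.53% and 7.79% and the 4 db/db shares between 12.7% and 18.7%.

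**Figure D3:**
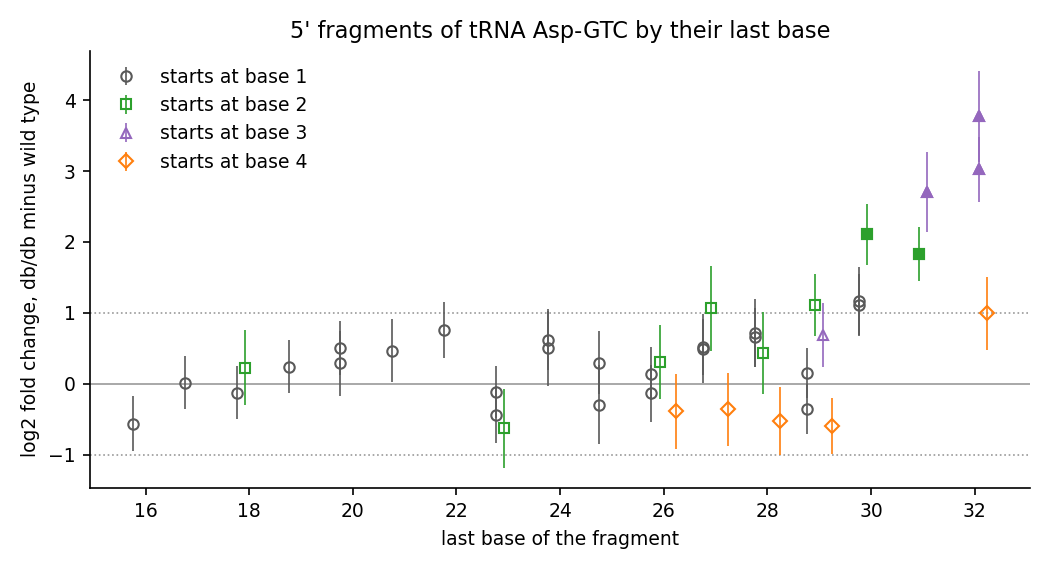
Log2 fold change (db/db minus wild type) of each tested 5' fragment of tRNA Asp-GTC against its last base, with bars of 1 standard error, filled symbols for called sequences and symbols shifted sideways a little by first base. Dotted lines mark 2-fold changes. Values lie between -0.63 and 1.11 up to base 29, and the 5 called sequences, all starting at base 2 or 3, end at bases 30 to 32.

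Sequences are given next by first base, again without a test between them, and the sums by first base cover more than 1 last base. A fragment that starts at base 1 cannot be seen beyond base 30 in this table. The 2 sequences of bases 1 to 30, with and without G20T, summed to 355 ± 228 CPM in wild type and 772 ± 386 CPM in db/db libraries, with overlap. For the 2 tested sequences of bases 1 to 30, with and without G20T, the change was 1.17 ± 0.48 (adjusted p = 0.139) and 1.12 ± 0.44 (adjusted p = 0.109), not called with all libraries. Both were called without wild type library 3 and without db/db library 3, and the one without G20T also without a normalisation factor. The 7 sequences that started at base 4 summed to 274 ± 103 CPM in wild type and 221 ± 49.5 CPM in db/db libraries, and the longest of them, bases 4 to 32, had a log2 fold change of 0.99 ± 0.51 (adjusted p = 0.274). Those that started at base 3 summed to 58.1 ± 20.4 CPM in wild type and 319 ± 49.6 CPM in db/db libraries. The sums for base 2 were 240 ± 89.8 and 586 ± 138 CPM, and neither start overlapped between the genotypes. The most abundant sequence from base 4 ended at base 29 and that from base 3 at base 32. First and last base therefore cannot be told apart in these sums. Of the more abundant shorter 5' fragments, the sequence of bases 1 to 29 stood at 1036 ± 201 and 1150 ± 312 CPM, that of bases 1 to 18 at 1090 ± 372 and 998 ± 337 CPM, and that of bases 1 to 26 at 714 ± 292 and 788 ± 227 CPM, with adjusted p-values of 0.840, 0.876 and 0.854. The count-weighted mean length of the fragments that start at base 1 averaged 23.3 ± 0.558 nt in wild type and 24.1 ± 0.727 nt in db/db libraries (exact permutation p = 0.143, adjusted p = 0.533).

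As a whole, the CCA-ending fragments passed no test for a difference between the genotypes. They summed to 468796 ± 78717 CPM in wild type and 457217 ± 148144 CPM in db/db libraries (log2 fold change -0.04 ± 0.28, adjusted p = 0.945). Starts at bases 47, 48 and 49, in the variable region and at the T stem, gave most of them. The 29-nt fragments made up 32.6% ± 6.96 of the CCA-ending counts in wild type and 37.01% ± 7.63 in db/db libraries, the 28-nt fragments 35.9% ± 2.28 and 35.6% ± 2.62, and the 27-nt fragments 20.7% ± 8.55 and 15.98% ± 5.45. The 30-nt fragments added 5.23% ± 1.19 and 6.27% ± 0.835, and each length below 26 nt held at most 1.64% in any library.

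**Figure D4:**
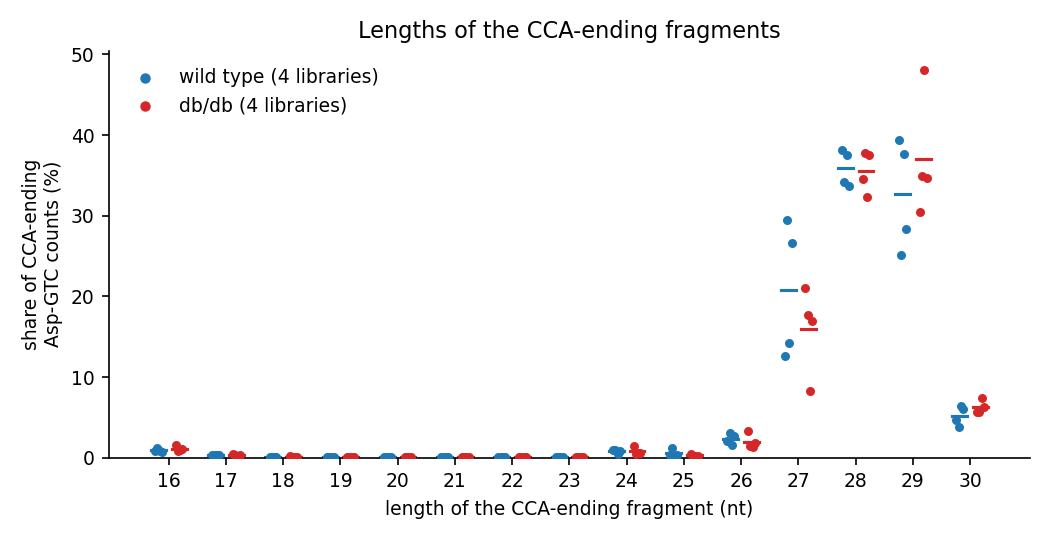
Share of the CCA-ending Asp-GTC counts held by each fragment length, in percent, with 1 point for each library and a bar at each group mean. Lengths of 27, 28 and 29 nt dominate in all 8 libraries, and the spread between libraries of 1 genotype is widest at 27 and 29 nt.

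The proportion of these lengths varied more between libraries of 1 genotype than between genotypes. The ratio of 27-nt to 29-nt counts was 0.321, 1.17, 0.378 and 0.938 in the wild type libraries. In the db/db libraries it was 0.690, 0.506, 0.172 and 0.491, so that libraries 2 and 4 of wild type were high and library 3 of db/db was low. The most abundant CCA-ending sequence, bases 47 to 75, held 28.6% ± 6.10 of the CCA-ending counts in wild type and 32.5% ± 6.47 in db/db libraries, and the mean length was 27.9 ± 0.210 and 28.0 ± 0.227 nt. The exact permutation p-values were 0.457 and 0.514 (adjusted 0.686 for both). Among the 5 most abundant CCA-ending sequences the log2 fold change ran from -0.47 ± 0.36 for bases 49 to 75 to 0.24 ± 0.39 for bases 46 to 75, with adjusted p-values of 0.496 and 0.773. The sequences of bases 47 to 75, 48 to 75, and 48 to 75 with G56A had log2 fold changes of 0.17, -0.06 and -0.07.

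Fragments that stopped at base 72, 3 bases short of CCA, were lower in db/db β-cells where they started at base 49. The sequence of bases 49 to 72 had 161, 242, 180 and 270 CPM in the wild type libraries and 70.05, 83.5, 49.8 and 92.1 CPM in the db/db libraries. All db/db values lay below all wild type values, and it fell by 1.54 on the log2 scale (SE 0.37, adjusted p = 0.00375, edgeR). Its variant with G56A had 27.1, 43.1, 28.6 and 34.03 CPM in wild type and 6.63, 12.7, 14.0 and 4.39 CPM in db/db libraries. It fell by 1.81 (SE 0.52, adjusted p = 0.0181, edgeR), also without overlap. This variant exceeded the count minimum in wild type libraries alone, so it entered the test only through the genotype where it is high. Its p is therefore not given as separate support for the fall at base 49.

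The fragment that starts 1 base earlier, bases 48 to 72, was the most abundant of those that end at base 72 by mean CPM over the 8 libraries. It stood at 476, 296, 375 and 324 CPM in wild type and at 119, 191, 230 and 244 CPM in db/db libraries, with a log2 fold change of -0.90 ± 0.36 and an adjusted p of 0.113. Its values did not overlap, and whether it was called depended on the processing. It was called without wild type library 2 (-1.09, adjusted p = 0.0646) or 4 (-1.05, adjusted p = 0.0598), and over the alternatives its adjusted p ran from 0.0387 with DESeq2 to 0.427 with the sizes implied by the deposited log2 values. Bases 47 to 72, close behind in mean CPM and ahead in total counts (2270 against 2150), stood at 305 ± 105 and 251 ± 96.0 CPM with a log2 fold change of -0.28 ± 0.38 (adjusted p = 0.725). All 14 fragments that ended at base 72 together summed to 1460 ± 259 CPM in wild type and 1167 ± 297 CPM in db/db libraries (log2 fold change -0.32 ± 0.29, adjusted p = 0.529). Their share of the 3' ends averaged 0.311% ± 0.0262 in wild type and 0.263% ± 0.0534 in db/db libraries (exact permutation p = 0.200, adjusted p = 0.533).

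Seen by first base, again as a description chosen after the values were seen, the share that ended at base 72 among fragments of the same start averaged 0.269% ± 0.0239 in wild type and 0.125% ± 0.0176 in db/db libraries for base 49. For base 48 it was 0.240% ± 0.0244 and 0.141% ± 0.0322, and at neither start did the genotypes overlap. For base 47 it was 0.224% ± 0.0391 and 0.167% ± 0.0289, with overlap. For base 50 it was 0.110% ± 0.0506 and 0.0871% ± 0.0195, also with overlap. At base 46 the db/db mean was the higher, 0.458% ± 0.176 against 0.340% ± 0.0809, and the values overlapped. The sequences of bases 43 to 72, 44 to 72, 45 to 72 and 46 to 72 had log2 fold changes of 0.28, 0.37, 0.29 and 0.53. Bases 43 to 72 with G56A had -0.28, and none of these was called. Every one of the 14 sequences lacked the whole CCA. The table used here lists 78 sequences that end 1 base short of CCA and 60 that end 2 bases short, and 0 of either kind are assigned to Asp-GTC. Since some rows may not be in the table used here, this 0 describes the table and not the fragments of the cells.

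**Figure D5:**
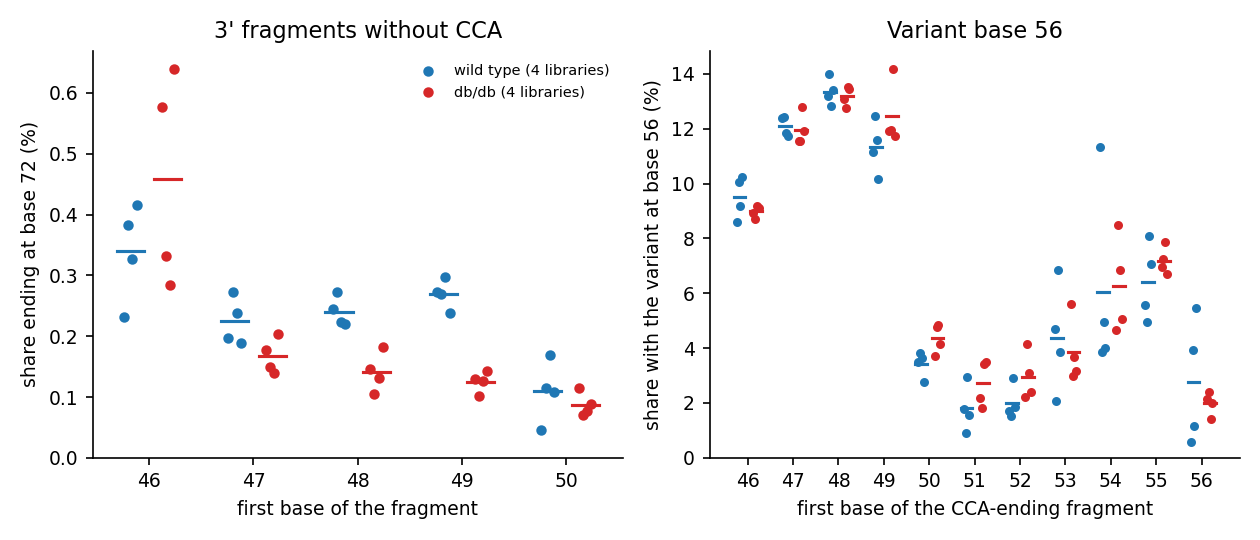
Left, percent of 3' fragments of the same first base that end at base 72, without CCA; right, percent of CCA-ending fragments of the same first base that carry the variant at base 56. Points are libraries (4 wild type, 4 db/db) and bars are group means. The wild type points lie above the db/db points at first bases 48 and 49 on the left, and the variant share on the right drops between first bases 49 and 50 in both genotypes.

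Over all 3 variable bases together, the variant bases passed no test for a difference between the genotypes. Sequences with a variant base made up 11.9% ± 0.356 of the counts that cover a variable base in wild type and 11.9% ± 0.524 in db/db libraries (exact permutation p = 0.943, adjusted p = 0.971). Few counts covered base 20 (49252) beside base 56 (3833087), so this pooled share followed G56A and could not show a change of G20T. G56A made up 11.9% ± 0.391 and 11.9% ± 0.497 of the counts over base 56, and C66T 0.269% ± 0.0328 and 0.223% ± 0.0313 of those over base 66, with overlap. Among CCA-ending fragments that start at base 60, the C66T share averaged 0.403% ± 0.0315 in wild type against 0.206% ± 0.0467 in db/db libraries, without overlap and not tested. G20T, seen only in the rarer 5' fragments, made up 10.9% ± 0.557 of the counts over base 20 in wild type and 8.79% ± 0.765 in db/db libraries. The G20T shares of the genotypes did not overlap, a difference noticed in the data and not tested, and it was not uniform over fragment ends. Among 10 last bases with a G20T sequence the shares separated at base 29 alone (13.0% ± 1.17 and 9.60% ± 1.08), and at base 32 the db/db mean was the higher (6.11% ± 6.05 and 13.7% ± 2.00).

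The share of G56A varied with where a CCA-ending fragment began. At first base 46 the pooled share over the 8 libraries was 9.29%, and at bases 47, 48 and 49 it was 12.3%, 13.3% and 11.8%. It was 3.88% at base 50, 2.13% at base 51 and 2.42% at base 52, and then 3.996%, 5.88% and 7.09% at bases 53, 54 and 55, and 2.26% at base 56. At base 50 the 8 libraries lay between 2.77% and 4.84%, below the lowest value at base 49 (10.2%), so the drop was seen in every library.

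Fragments that carried neither end were many and rare. Of the 111 sequences, 45 spanned the whole anticodon, starting at bases 22 to 34, and summed to 595 ± 243 CPM in wild type and 821 ± 288 CPM in db/db libraries. The 31 of them that were tested had a median log2 fold change of 0.61 and a range of -0.34 to 1.24, and 0 were called or had an unadjusted p under 0.05 (edgeR), a level that 21.1% of all tested sequences reached. Another 25 started at bases 37 to 49 and ended at bases 66 to 71, within the acceptor strand, and summed to 1182 ± 211 and 1251 ± 319 CPM. A further 40 started at bases 35 to 42, ended at bases 54 to 65 and summed to 610 ± 349 and 852 ± 354 CPM. The last one, bases 5 to 32, was too rare to be tested, with 3.39 to 9.54 CPM in wild type and 12.3 to 17.2 CPM in db/db libraries. The most abundant, bases 40 to 69, had 110, 53.8, 151 and 377 CPM in wild type and 78.6, 176, 265 and 149 CPM in db/db libraries (log2 fold change -0.06 ± 0.48). As a group the fragments without either end had a log2 fold change of 0.30 ± 0.30 (adjusted p = 0.568).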

How the data were processed

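Per the study's methods, the authors collapsed small RNA reads of over 16 nt by molecular identifier, aligned them to GRCm38.p6 and matched them without mismatch to mature tRNAs with bowtie; the deposited columns give counts per tRF sequence and library. The deposited RPM values (a score here, rounded to whole numbers by the authors) and the deposited log2 values, whose normalisation no source used here states, served only to derive alternative library sizes. A column with the authors' own direction of change was not used.

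Counts were fitted over the whole table with edgeR 4.0.16 in R 4.3.3 (quasi-likelihood test, TMM factors on all sequences, filterByExpr at min.count 10 and min.total.count 15). A call needed an adjusted p under 0.1 and over 2-fold change. Sums per tRNA and fragment group were fitted with the same factors, and DESeq2 1.42.0 was an alternative. Shares and lengths were compared by 2-sided exact permutation. Fragments were joined at overlaps of at least 11 bases and each placed with 0 or 1 mismatches. The fit was tested on simulated data. Listed tRF counts of 582165 to 2946290 a library set the precision, and intervals cover counting error only. Libraries of 1 genotype differed beyond sampling noise in 12 of 12 pairs.

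Members, lists and tests were chosen with earlier results of these data known. Named sequences were the 5 most abundant ending in CCA, the 3 most abundant starting at base 1, the most abundant of each other kind, and up to 8 called ones without overlap; others named were chosen after their values were seen.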

Additional observations from a re-analysis of the deposited data

Results flagged for a closer look

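Of 62 groups of 4 libraries examined, 1 held a library far from the other 3, and chance flags about 1 in 20 such groups. The sequence of bases 3 to 32 had 143 CPM in db/db library 2, while the other db/db libraries lay between 201 and 205 CPM. Even this lowest value was above the highest wild type value of 47.4 CPM.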

How the results depend on the processing

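The number of called Asp-GTC sequences was 7 to 8 under other normalisation factors, filters, thresholds and DESeq2, apart from 4 with the effective library sizes of the deposited log2 values and 3 when sequences that differ by 1 to 2 nt at 1 end were merged (53 tested). Leaving out single libraries gave 7 to 20 calls: 20 without wild type library 3 (16 higher, the 7 among them) and 11 without db/db library 3 (the 7 among them). Bases 3 to 32, with and without G20T, and bases 49 to 72, with and without G56A, stayed called in every alternative that kept them apart. Bases 2 to 31, 2 to 30 and 3 to 31 lost the call with the deposited log2 sizes (adjusted p 0.451, 0.315 and 0.112), and bases 2 to 31 also with the totals implied by RPM (0.114); those sizes moved the median of all sequences to -0.51 and -0.36.

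For fragments starting at bases 2 to 4 the change was 1.07 without a factor, which passed the fold limit, 0.85 to 1.09 without single libraries (past it without wild type library 3 or db/db library 2), and -0.31 when only base 4 counted. With the implied totals and the log2 sizes it was 0.54 and 0.38 (adjusted p 0.402 and 0.804). Those 2 sizes gave -0.22 and -0.47 for starts at base 1 and -0.052 and -0.22 for fragments with neither end. Without single libraries the change ran from -0.024 to 0.45 for starts at base 1, from -0.23 to 0.046 for CCA ends and from -0.23 to 0.049 for the total. It ran from -0.52 to -0.24 for ends 3 bases short of CCA and from 0.076 to 0.50 for fragments with neither end. With the log2 sizes, ends 3 bases short of CCA gave -0.71 and bases 49 to 75 gave -1.25, neither called. The difference in the share of all tRF counts was 0.431 percentage points without the 3 most abundant sequences. The difference in the share of variant sequences ran from -2.18 to 0.17 percentage points over the alternatives, and from -0.25 to 0.17 without single libraries. Signs of uncalled sequences also turned: bases 1 to 26 gave -0.21 and -0.42, bases 1 to 29 -0.31 and -0.53, and bases 47 to 75 -0.046 with the implied totals and -0.028 merged. Without single libraries, bases 1 to 18 ran from -0.39 to 0.082, 1 to 26 from -0.092 to 0.45, 1 to 29 from -0.039 to 0.26, 46 to 75 from -0.058 to 0.38, 47 to 75 from -0.18 to 0.36, 48 to 75 from -0.28 to 0.053 (with G56A -0.27 to 0.037), and 40 to 69 from -0.41 to 0.57. Factors computed on the filtered sequences alone, chosen after seeing the data, gave 7 calls and 0.91 for starts at bases 2 to 4. The cause of these shifts was not tested. No paired analysis was possible because no replicate number is shared between the genotypes in the labels.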

Other observations

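Against the library total that the deposited RPM values imply, rather than the listed tRF counts, Asp-GTC held 22.7%, 22.7%, 11.4% and 18.7% in the wild type libraries and 8.03%, 16.05%, 25.1% and 9.80% in the db/db libraries. The tRF counts as a whole held 22.6% to 55.7% of that total in wild type and 20.01% to 55.4% in db/db libraries, so that the choice of total moves the level of every fragment of a library together. No source used here states what that total counts.

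The short CCA-ending fragment of bases 60 to 75 with C66T had 18.6, 16.1, 17.5 and 14.2 CPM in wild type and 8.52, 12.7, 9.78 and 7.89 CPM in db/db libraries, and bases 50 to 75 with C66T had 14.3 to 30.5 and 6.63 to 9.65 CPM. Neither overlapped between the genotypes and neither passed the threshold (edgeR's adjusted p 0.424 and 0.190), but bases 50 to 75 with C66T was called with the library totals implied by RPM. Both were noticed after their values were seen.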
